A study of Mus musculus with 23 samples.

Results

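The 7 genes described here encode secreted growth factors that act on spermatogonia, the mitotic germ cells at the base of the seminiferous tubule: Gdnf, Kitl, Fgf2, Csf1, Bmp4, Nrg1 and Fgf9. They were chosen by name for their place in the spermatogonial niche, not for their counts, though earlier results of these data were known. Each is measured by 1 of the 27466 genes in the table of read counts. All 7 passed the filter on low counts and were tested among 19255 genes. The samples came from testes of wild-type CD-1 mice and held germ cells together with somatic cells. In vivo testes were taken from 6.5 days postpartum (dpp) onward, the later ages being 10.5, 22.5 or 36.5 dpp. For the in vitro groups, testes of 6.5 dpp mice were cultured as explants in alpha-MEM with serum replacement, gentamicin and retinol, which was supplied intermittently. Explants were collected at day 4 (D4), day 16 (D16) or day 30 (D30), which correspond in age to the 3 later in vivo groups. Some 6.5 dpp testes and 1 D30 culture had first been cryopreserved by controlled slow freezing (CSF), and the others were fresh. Each in vitro library pooled several explants, and the necrotic centre of each explant was cut away before RNA was extracted, so an in vitro library does not stand for the whole explant.

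GDNF from Sertoli cells, the somatic cells that surround the germ cells, binds GFRA1 and RET on undifferentiated spermatogonia and keeps the stem cell pool. KIT ligand (Kitl) acts through KIT on differentiating spermatogonia, and FGF2 and CSF1 support the pool through FGF receptors and CSF1R. BMP4 and neuregulin 1 (Nrg1) are known to favour differentiation, through BMP and ErbB receptors, while FGF9 is best known for male sex determination in the fetal gonad.

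The first fresh 6.5 dpp replicate was left out because its gene ranks were closer to a D16 culture (Spearman's rho 0.982) than to the second fresh 6.5 dpp replicate (0.844), and the third fresh 6.5 dpp replicate because its counts were identical to those of the second. The other 21 libraries held 28351546 to 69029328 counted reads: 4 of 6.5 dpp testis (1 fresh, 3 CSF), 3 each for 10.5 dpp, 22.5 dpp and D4, 2 each for 36.5 dpp and D16, and 4 for D30 (3 fresh, 1 CSF). Spermatid markers summed to 0.918 to 4.82 CPM (counts scaled to a common library total) in the 6.5 and 10.5 dpp libraries and to 16420 to 21330 CPM at 36.5 dpp, and to 345.6 to 1635 CPM at D30. Replicate 2 of D16 and replicate 3 of D30 held the lowest spermatocyte marker sums of their groups (711.8 and 405.5 CPM). They also held the highest Sertoli cell marker sums (7774 and 10010 CPM). Calls that changed when both were left out, a check chosen after seeing the data, are given beside the results. At 22.5 dpp, replicate 2 had the lowest spermatid marker sum of its group (9.1 CPM, against 50.1 and 60.0). Its Sertoli cell and spermatocyte marker sums were the highest (3104 and 1603 CPM). Every member but Nrg1 was at its highest of that age in this library.

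The promoters of 3 members are shown because these genes had different courses in vivo. Gdnf fell most from 10.5 to 22.5 dpp, and Kitl fell with it but was far more abundant. Csf1 was called lower only from 22.5 to 36.5 dpp. Each window is the 250 bases before a start site in RefSeq (GRCm38.p6), written 5' to 3' on the gene's strand, with the motifs TATAAA and GGGCGG and the motif TGACGT in capitals where they or their reverse complements occur.
Gdnf chr15:7809798-7810047 (+): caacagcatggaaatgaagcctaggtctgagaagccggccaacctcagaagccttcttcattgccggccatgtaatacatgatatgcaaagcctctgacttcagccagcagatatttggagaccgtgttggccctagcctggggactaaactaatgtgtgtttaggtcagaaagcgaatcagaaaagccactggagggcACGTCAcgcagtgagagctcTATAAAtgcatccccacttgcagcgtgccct
Kitl chr10:100015571-100015820 (+): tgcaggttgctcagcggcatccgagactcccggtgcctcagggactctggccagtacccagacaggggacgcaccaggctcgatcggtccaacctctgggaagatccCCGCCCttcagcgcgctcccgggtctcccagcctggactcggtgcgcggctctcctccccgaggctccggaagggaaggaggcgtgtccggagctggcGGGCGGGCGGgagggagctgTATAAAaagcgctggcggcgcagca
Csf1 chr3:107760470-107760719 (-): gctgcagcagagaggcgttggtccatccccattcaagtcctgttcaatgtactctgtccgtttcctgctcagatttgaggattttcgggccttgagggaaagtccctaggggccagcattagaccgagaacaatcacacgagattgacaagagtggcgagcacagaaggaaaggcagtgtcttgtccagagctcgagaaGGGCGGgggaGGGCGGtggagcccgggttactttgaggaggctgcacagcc
In Gdnf a TATAAA began 31 bases before the start site and a TGACGT on the other strand 51 bases before it. In Kitl a TATAAA lay 25 bases before the start and GGGCGG began 143 (on the other strand), 45 and 41 bases before it, the last 2 overlapping. The Csf1 window held 2 GGGCGG, at 51 and 41 bases, and no TATAAA. Across all 32851 RefSeq windows of this length, searched on both strands, 12.4% held TATAAA, 32.7% held GGGCGG and 6.5% held TGACGT, so these motifs are common. Of the other windows, Bmp4 and Fgf2 each held 1 GGGCGG, 38 and 49 bases before the start, and Fgf9 held 1 TGACGT 64 bases before it. Another start site of Gdnf, with the window chr15:7813477-7813726, had none of these motifs. The start sites used for Kitl, Fgf2 and Fgf9 lie inside the gene spans given below. The Kitl and Fgf2 windows therefore lie partly, and the Fgf9 window wholly, within the gene. A match describes the letters only.

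On GRCm38, Gdnf (Entrez 14573) lies at chr15:7810048-7837580 and Kitl (17311) at chr10:100015615-100100416, both on the forward strand. Fgf2 (14173) is at chr3:37348477-37410106 and Fgf9 (14180) at chr14:58070671-58112854, also forward. Csf1 (12977) at chr3:107741048-107760469, Bmp4 (12159) at chr14:46383525-46390669 and Nrg1 (211323) at chr8:31807452-32891609 are on the reverse strand. In Fgf2, 5199 exon bases also lie within Nudt6, which is read from the opposite strand. The strand setting of the counting is not given in the sources used here. Reads in the shared bases may therefore be uncounted or given to the wrong gene, and Fgf2 values are uncertain. Nudt6 itself was called in none of the comparisons described here; its log2 fold change was -0.29 from 10.5 to 22.5 dpp and 0.10 between D30 and 36.5 dpp, where those of Fgf2 were -1.63 and 2.59.

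Per kilobase of exon, Kitl was the most abundant of the 7 at every in vivo age and culture day, with group means of 65.1 CPM per kb at 6.5 dpp, 3.48 at 36.5 dpp and 28.2 at D30. Fgf9 was the least abundant throughout, at 0.0732 to 0.328 CPM per kb. Gdnf held the next place after Kitl at 6.5 dpp, with 9.01 CPM per kb, but at 36.5 dpp it stood at 0.323, below Csf1 (1.03) and Bmp4 (0.589). The levels by library are plotted for each gene.

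**Figure D1:**
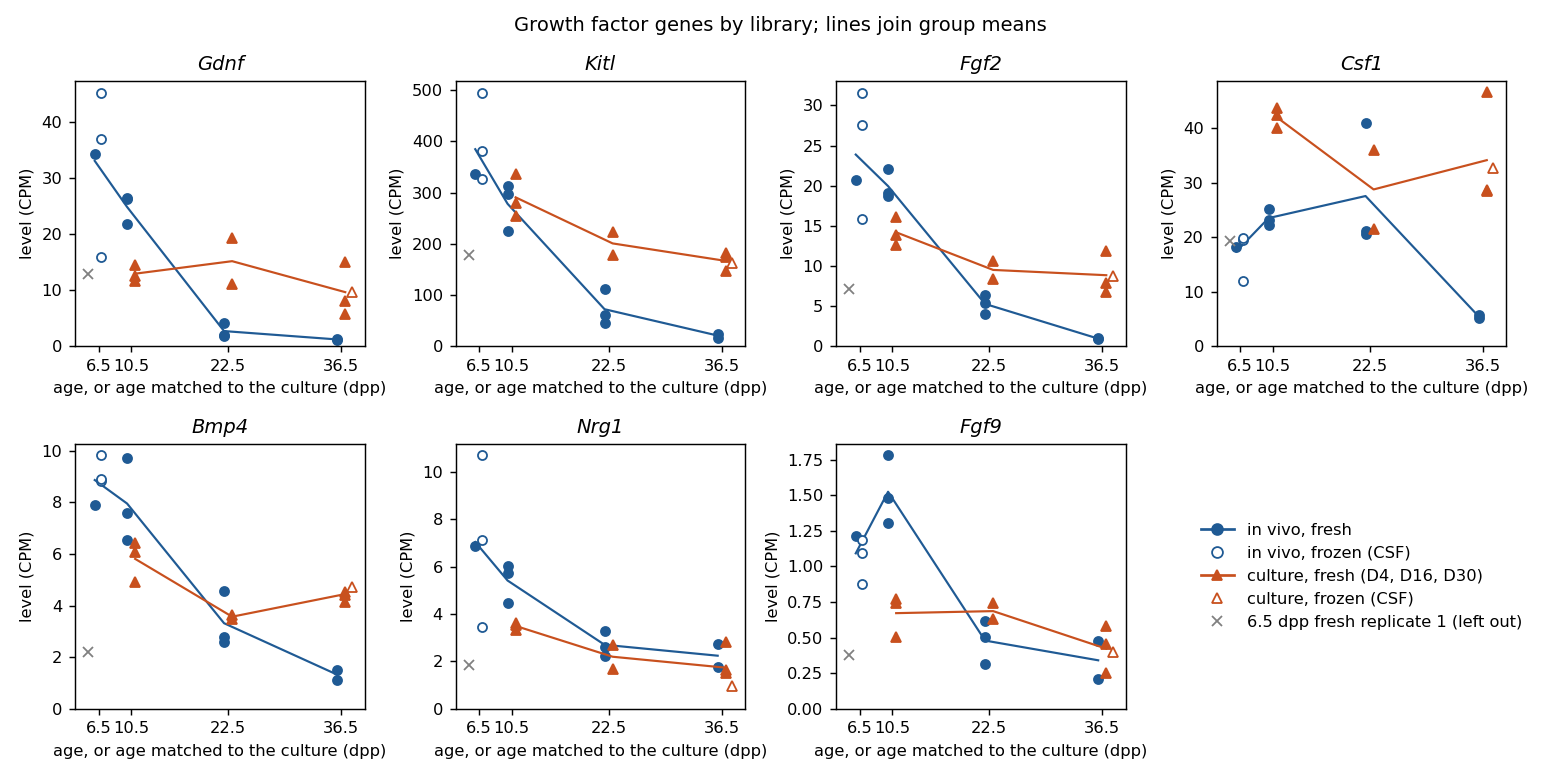
Level of each growth factor gene in CPM (y axis, from 0) against age, or age matched to the culture, in dpp (x axis); each point is a library, circles are in vivo and triangles are cultures, open symbols are CSF tissue, crosses the excluded 6.5 dpp library, and lines join group means. Gdnf, Kitl and Fgf2 descended with age in vivo to 1.16 to 1.22, 16.6 to 24.5 and 0.832 to 1.03 CPM at 36.5 dpp, while their D30 cultures stood higher.

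Which of the factors change during the first spermatogenic wave in vivo was asked first. From 10.5 to 22.5 dpp, 5 of the 7 genes fell, led by Gdnf, and none rose. From 22.5 to 36.5 dpp 4 fell, and Csf1 was among them for the first time. Calls are an adjusted p under 0.05 in edgeR's quasi-likelihood test with Benjamini-Hochberg adjustment over all 19255 genes, and fold changes are on TMM-normalised counts, so they need not equal the ratio of the CPM printed. Some libraries of a group may share animals, since the labels do not give an animal for each, and the p-values measure the spread between these samples. Between 6.5 and 10.5 dpp none of the 7 was called (1 had an unadjusted p under 0.05, and DESeq2 called 0), where 0.675% of all genes rose and 0.467% fell; their log2 fold changes ran from -0.53 for Kitl to 0.42 for Fgf9.

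Gdnf stood at 34.3 CPM in the fresh 6.5 dpp library and at 37.1, 45.2 and 15.9 CPM in the CSF libraries of that age. At 10.5 dpp it was at 26.4, 21.8 and 26.5 CPM. At 22.5 dpp it was at 1.85, 4.15 and 2.05 CPM, and at 36.5 dpp at 1.22 and 1.16 CPM. The levels at 22.5 dpp did not overlap those at 10.5 dpp, and those at 36.5 dpp lay just below all 3 at 22.5 dpp. Gdnf was 7.67-fold lower at 22.5 than at 10.5 dpp (log2 fold change -2.94, SE 0.366, adjusted p = 2.59e-06), and the later step of -0.64 did not pass (adjusted p = 0.202), except with library size as the only scaling, where it was -1.18 (adjusted p = 0.0346).

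Kitl was at 337, 382, 494 and 326 CPM at 6.5 dpp and at 313, 297 and 224 CPM at 10.5 dpp. It was at 59.9, 112 and 44.8 CPM at 22.5 dpp and at 24.5 and 16.6 CPM at 36.5 dpp. Each of the later ages lay below the one before it with no overlap. Its steps were 3.21-fold lower (log2 -1.68, SE 0.252, adjusted p = 1.91e-05) and then 2.42-fold lower (log2 -1.28, SE 0.287, adjusted p = 0.00149).

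Fgf2, the fibroblast growth factor of stem cell culture media, fell in both steps as well, with 18.7 to 22.1 CPM in the 10.5 dpp testes, 3.98 to 6.41 in those of 22.5 dpp and 0.832 and 1.03 in those of 36.5 dpp. The log2 fold changes were -1.63 (SE 0.24, adjusted p = 1.57e-05) and -1.98 (SE 0.297, adjusted p = 5.26e-05). Csf1, the growth factor of macrophages, did not follow them. It was at 22.2 to 25.2 CPM at 10.5 dpp, at 20.5, 40.9 and 21.2 at 22.5 dpp, and at 5.11 and 5.76 at 36.5 dpp. Replicate 2 alone stood high at 22.5 dpp, the library with the highest Sertoli cell and macrophage marker sums of that age (3104 and 280.5 CPM). The change from 10.5 dpp was 0.50 (adjusted p = 0.0761). It passed with RLE factors (adjusted p = 0.0423), in DESeq2 (adjusted p = 0.0326), without 22.5 dpp replicate 1 or replicate 3 (adjusted p = 0.0478 to 0.0479) and without D16 replicate 2 and D30 replicate 3 (adjusted p = 0.0472). Without 22.5 dpp replicate 2 it was 0.19 (adjusted p = 0.488), and with library size only 0.23 (adjusted p = 0.469). By 36.5 dpp it had fallen 3.49-fold (log2 -1.80, SE 0.285, adjusted p = 8.24e-05).

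Bmp4 ran from 6.56 to 9.73 CPM at 10.5 dpp through 2.59 to 4.56 to 1.13 and 1.52 CPM, with steps of -0.98 (adjusted p = 0.000792) and -0.80 (adjusted p = 0.0142). The later step was no longer called without 22.5 dpp replicate 2 (adjusted p = 0.0742) or 36.5 dpp replicate 2 (adjusted p = 0.129), with RLE factors (-0.60, adjusted p = 0.0584), with the excluded 6.5 dpp library (adjusted p = 0.131) or in a fit of the 2 ages alone (adjusted p = 0.154). Fgf9, with only 8 to 98 reads a library, fell from 1.31 to 1.78 CPM to 0.317 to 0.614 CPM between 10.5 and 22.5 dpp (log2 -1.38, SE 0.337, adjusted p = 0.00179). Nrg1 was at 4.48 to 6.04 CPM and then at 2.24 to 3.27 CPM, without overlap, but its change of -0.70 (SE 0.359) did not pass (adjusted p = 0.0986) except with library size only, in fresh libraries alone or in a fit of the stages compared (adjusted p = 0.0269 to 0.0352). Neither gene changed by the test from 22.5 to 36.5 dpp, where the sign of both turned negative with library size only (0.22 to -0.27 for Nrg1, 0.01 to -0.51 for Fgf9).

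These counts stood in a transcriptome that changed widely: from 10.5 to 22.5 dpp 27.9% of all genes fell and 33.6% rose, and from 22.5 to 36.5 dpp 27.5% fell and 23.3% rose. The median log2 fold change of the 7 was -1.38 and -0.80 in these steps, against 0.06 and -0.13 over all genes. The latter moved to -0.23 and -0.63 with library size only, and to 0.12 and 0.07 with RLE factors. Whole testis was sequenced, and CPM are shares of a library total. Fewer cells of a type, less RNA per cell and dilution by added germ cell RNA therefore cannot be told apart. Spermatid markers summed to 0.918 to 4.47 CPM at 10.5 dpp, 9.1 to 60.0 at 22.5 dpp and 16420 to 21330 at 36.5 dpp. The 10 Sertoli cell markers, all measured, summed to 6017 to 6288 CPM in 10.5 dpp testes, then 1796 to 3104, and 746.8 to 961 in 36.5 dpp testes, and 9 of 10 fell in each step (medians -1.67 and -1.12). Against the median of those markers the change from 10.5 to 22.5 dpp was -1.27 for Gdnf, -0.01 for Kitl, 0.04 for Fgf2, 0.69 for Bmp4 and 2.17 for Csf1. Markers of other somatic cells had other medians in this step: 0.47 for Leydig, -0.70 for peritubular myoid and -0.99 for endothelial cells. The part of cell makeup in these falls was not tested.

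Whether explants kept the factors was asked by comparing each culture with the testis of the same age. At D4 Csf1 alone of the 7 was called higher and Fgf9 alone lower. At D16 Gdnf and Kitl were higher, and at D30 Gdnf, Kitl, Fgf2, Csf1 and Bmp4 were higher and Nrg1 was lower. The share of all genes called was 4.92% higher and 3.18% lower for D4, 14% and 11.8% for D16, and 32.4% and 35% for D30. The median log2 fold change of the 7 was -0.40, 0.37 and 2.00 at the 3 stages, against -0.01, -0.08 and -0.03 over all genes, and the all-gene median at D30 was 0.60 with library size only and -0.29 with RLE factors.

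**Figure D2:**
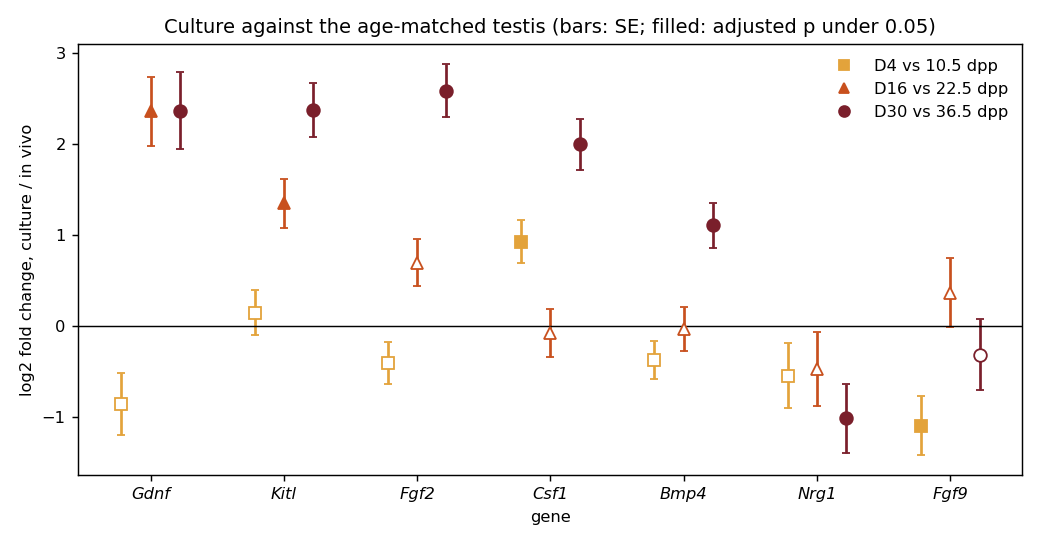
Log2 fold change of culture over the age-matched testis (y axis) for each gene (x axis) at D4 (squares), D16 (triangles) and D30 (circles), with bars for the SE and filled symbols for an adjusted p under 0.05. Gdnf was at -0.85, 2.36 and 2.37 in that order, Csf1 at 0.93, -0.07 and 2.00, and Nrg1 lay below 0 at each.

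D4 cultures held Gdnf at 14.5, 12.6 and 11.7 CPM and D16 cultures at 11.1 and 19.3 CPM. The fresh D30 cultures had 8.11, 5.75 and 14.96 CPM, and the D30 culture of CSF tissue had 9.75 CPM. All 3 D4 cultures lay below the 10.5 dpp testes, while all D16 and D30 cultures lay above the testes of their age. The D4 difference of -0.85 (SE 0.338) did not pass (adjusted p = 0.152), although a fit of only these 2 stages called it (adjusted p = 0.000419). At D16 Gdnf was 5.13-fold higher than at 22.5 dpp (log2 2.36, SE 0.381, adjusted p = 0.000383), and 1.94 without D16 replicate 2 and D30 replicate 3 (adjusted p = 0.00609). At D30 it was 5.16-fold higher than at 36.5 dpp (log2 2.37, SE 0.42, adjusted p = 0.000105), and 2.12 without both (adjusted p = 0.00016). In order of mean CPM, Gdnf ran from 6.5 dpp (33.1) through 10.5 dpp (24.9), D16 (15.2), D4 (12.9) and D30 (9.64) to 22.5 dpp (2.68) and 36.5 dpp (1.19); the cultures overlapped each other, as did 6.5 and 10.5 dpp.

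D4 cultures held Kitl at 337, 281 and 254 CPM and D16 cultures at 177 and 224 CPM. In D30 cultures it was at 148, 174 and 182 CPM for fresh and 162 CPM for CSF tissue. D4 overlapped 10.5 dpp, with a log2 fold change of 0.15 (adjusted p = 0.855). D16 and D30 lay above the testes of their age without overlap. Kitl was 2.54-fold higher at D16 (log2 1.35, SE 0.271, adjusted p = 0.00228) and 5.21-fold higher at D30 (log2 2.38, SE 0.295, adjusted p = 3.19e-06). A fit of D16 and 22.5 dpp alone gave 1.39 for the former with an adjusted p of 0.0615, and leaving out D16 replicate 2 and D30 replicate 3 gave 1.2 (adjusted p = 0.0421).

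At D4 Fgf2 differed from 10.5 dpp by -0.40 (adjusted p = 0.396), although a fit of these 2 stages alone called it (adjusted p = 0.029). Fgf2 at D16 (8.37 and 10.6 CPM) did not overlap 22.5 dpp, yet its change of 0.70 just missed the threshold (adjusted p = 0.0551). It passed without 22.5 dpp replicate 2, D30 replicate 3 or CSF replicates 2 or 3 of 6.5 dpp (adjusted p = 0.0312 to 0.0497), with library size only (0.0394) and in fresh libraries alone (0.0395). At D30 Fgf2 was at 6.79, 7.91 and 11.9 CPM in fresh and 8.77 CPM in CSF cultures. All 4 stood above both 36.5 dpp testes, by 6.03-fold in the fit (log2 2.59, SE 0.296, adjusted p = 1.44e-06).

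Csf1 was at 43.7, 42.3 and 40.0 CPM at D4, above all in vivo libraries except 22.5 dpp replicate 2, and 1.9-fold higher than at 10.5 dpp (log2 0.93, SE 0.238, adjusted p = 0.0198). The call was lost without 10.5 dpp replicate 1 or 3 or D4 replicate 1 or 2 (adjusted p = 0.06 to 0.088), with library size only (adjusted p = 0.074) and with the excluded 6.5 dpp library in the fit (adjusted p = 0.0571). At D16 it was at 21.5 and 35.9 CPM and overlapped 22.5 dpp (log2 -0.07 with TMM, 0.06 with library size only). At D30 it was at 28.5, 28.7 and 46.6 CPM in fresh and 32.7 CPM in CSF cultures, 4-fold higher than at 36.5 dpp (log2 2.00, SE 0.279, adjusted p = 1.07e-05).

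Bmp4 at D30 was at 4.15 to 4.72 CPM in all 4 cultures, 2.16-fold above 36.5 dpp (log2 1.11, SE 0.247, adjusted p = 0.000753). It did not pass at D4 (-0.37, adjusted p = 0.399) or at D16 (-0.03 with TMM and 0.10 with library size only, adjusted p = 0.929 for the former). Nrg1 was at -0.54 (adjusted p = 0.478) in the D4 comparison, although a fit of D4 and 10.5 dpp alone called it (adjusted p = 0.0139), and at -0.47 (adjusted p = 0.409) in that of D16. At D30 its CPM of 1.64, 1.52, 2.82 and, in CSF tissue, 0.954 overlapped the 2.73 and 1.75 CPM at 36.5 dpp, and its log2 fold change of -1.01 (SE 0.379, adjusted p = 0.0254) moved with the scaling: it was -0.37 with library size only (adjusted p = 0.424) and -1.27 in DESeq2 (adjusted p = 0.00285). It was also no longer called without 36.5 dpp replicate 1 (-0.69, adjusted p = 0.238), without the CSF culture at D30 (-0.80, adjusted p = 0.0647), in a fit of D30 and 36.5 dpp alone (adjusted p = 0.114) or with the excluded 6.5 dpp library (adjusted p = 0.0752). Fgf9 was at 0.504 to 0.768 CPM at D4 against 1.31 to 1.78 CPM at 10.5 dpp (log2 -1.09, SE 0.325, adjusted p = 0.0462), a call lost in 13 of 21 fits with 1 library left out, among them each D4 and each 10.5 dpp library (adjusted p = 0.0506 to 0.201), and also with no filter (adjusted p = 0.0681), in fresh libraries alone (adjusted p = 0.0595), with the excluded 6.5 dpp library (adjusted p = 0.182) and without D16 replicate 2 and D30 replicate 3 (adjusted p = 0.053). At D16 its change was 0.37 (adjusted p = 0.484). At D30 it was -0.31 with TMM and 0.32 with library size only (adjusted p = 0.5 for the former).

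The values relative to cell markers are given beside these results. Sertoli cell marker sums were 8556 to 9539 CPM in D4, 5567 to 7774 in D16 and 5913 to 10010 in D30 libraries, and 9 of 10 markers were higher at D16 and at D30, with medians over all 10 of 1.37 and 2.43. Less that median, the D16 difference was 0.99 for Gdnf and -0.02 for Kitl. At D30 it was -0.06 for Gdnf, -0.05 for Kitl, 0.17 for Fgf2, -0.43 for Csf1, -1.31 for Bmp4 and -3.43 for Nrg1. Leydig cell markers, 6 of 6 measured, went the opposite way, with sums of 325.4 to 600 CPM at D30 and 1571 to 1947 CPM at 36.5 dpp and a median of -2.25. Endothelial markers (6 of 6) summed to 156.7 to 210.9 CPM at D30 and 25.1 to 26.9 CPM at 36.5 dpp. Of 6 peritubular myoid markers, 4 were higher and 1 lower at D30 (median 1.28). Their sums overlapped, with 268.4 to 500.2 CPM at D30 and 353 to 403.5 CPM at 36.5 dpp. The part of these cells, and of the spermatid RNA that was scarce at D30, in the higher levels of the factors was not tested. Without D16 replicate 2 and D30 replicate 3, 2 members were called at D16 and 6 at D30.

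Over the mean of the 3 stages, 4 members were higher in culture (28.5% of all genes) and 1 was lower (27.2%). The mean log2 fold change was 1.29 for Gdnf (adjusted p = 9.07e-05), 1.29 for Kitl (adjusted p = 2.67e-06), 0.96 for Fgf2 (adjusted p = 4.16e-05) and 0.95 for Csf1 (adjusted p = 4.2e-05). That of Nrg1 was -0.67 (adjusted p = 0.0157), lost without 36.5 dpp replicate 1 or D16 replicate 1 (-0.57 in each, adjusted p = 0.0607 and 0.0576), with library size only (-0.43, adjusted p = 0.122) and with the excluded 6.5 dpp library (adjusted p = 0.0584). Bmp4 (0.24, adjusted p = 0.141) and Fgf9 (-0.34, adjusted p = 0.182) did not pass, but Bmp4 did without 22.5 dpp replicate 2 (adjusted p = 0.0478) and with library size only (0.47, adjusted p = 0.0102).

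A mean over stages hides differences between them, which were tested as differences of fold changes. From the D4 to the D16 stage the culture effect rose for Gdnf by 3.21 on the log2 scale (SE 0.51, adjusted p = 0.00117) and for Kitl by 1.19 (SE 0.366, adjusted p = 0.0472), where 9.61% of all genes were called in either direction. The Kitl call was lost in 14 of 21 fits with 1 library left out (adjusted p = 0.0523 to 0.204), among them all D4 and 10.5 dpp libraries, 22.5 dpp replicates 1 and 3 and D16 replicate 2, and it was lost with RLE factors (1.13, adjusted p = 0.0524), no filter (adjusted p = 0.0557), fresh libraries only (adjusted p = 0.0536), the excluded 6.5 dpp library (adjusted p = 0.197) and without D16 replicate 2 and D30 replicate 3 (1.05, adjusted p = 0.193). Csf1 (-1, adjusted p = 0.0826) and Fgf9 (1.46, adjusted p = 0.0714) did not pass. Csf1 did in DESeq2 (-1.07, adjusted p = 0.0237), in a fit of the stages compared (adjusted p = 0.0458) and without those 2 cultures (-1.38, adjusted p = 0.0485), and Fgf9 with library size only (1.69, adjusted p = 0.0422) and in a fit of the stages compared (1.43, adjusted p = 0.0323). Bmp4 differed by 0.33 (adjusted p = 0.547) and Nrg1 by 0.08 (adjusted p = 0.969). From the D16 to the D30 stage it rose for Csf1 by 2.07 (SE 0.381, adjusted p = 0.00143), for Fgf2 by 1.89 (SE 0.387, adjusted p = 0.00311) and for Bmp4 by 1.15 (SE 0.345, adjusted p = 0.0274), where 20.1% of all genes were called. The Bmp4 call was lost without 22.5 dpp replicate 2, 36.5 dpp replicate 2 or either D16 library (adjusted p = 0.0578 to 0.0994), with RLE factors (0.98, adjusted p = 0.0575), with the excluded 6.5 dpp library (adjusted p = 0.198), in a fit of the stages compared (adjusted p = 0.115) and without D16 replicate 2 and D30 replicate 3 (1.12, adjusted p = 0.0663). For Gdnf this later difference was 0.01 (SE 0.494), for Nrg1 -0.54 (adjusted p = 0.508) and for Fgf9 -0.68 (adjusted p = 0.391). Fgf2 missed the earlier call (1.10, adjusted p = 0.0545) but passed without CSF replicate 3 of 6.5 dpp, 22.5 dpp replicate 2 or D30 replicate 3 (adjusted p = 0.0274 to 0.0408), with library size only, in DESeq2, in fresh libraries alone and in a fit of the stages compared (adjusted p = 0.0164 to 0.0384), and Kitl missed the later one (1.03, adjusted p = 0.0649) but passed without 22.5 dpp replicate 3 (adjusted p = 0.0216) and with library size only (1.54, adjusted p = 0.0109). Both differences use the D16 and 22.5 dpp libraries, so they are not independent.

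Against the 6.5 dpp testis from which explants start, D4 explants held less Gdnf (log2 -1.31, SE 0.326, adjusted p = 0.00792), less Fgf2 (-0.71, adjusted p = 0.0287), less Bmp4 (-0.59, adjusted p = 0.0444) and more Csf1 (1.31, SE 0.22, adjusted p = 0.000347), beside 10.1% of all genes lower and 10.8% higher. Csf1 at D4 (40.0 to 43.7 CPM) lay far above its 12.0 to 19.8 CPM at 6.5 dpp, while the lowest Gdnf library at 6.5 dpp, CSF replicate 3 with 15.9 CPM, lay close above the D4 range of 11.7 to 14.5. Most 6.5 dpp libraries were of CSF tissue and all D4 cultures were fresh, so this comparison does not fully separate culture from freezing. The Bmp4 call was lost with library size only (adjusted p = 0.0543), no filter (0.0714) and the replicate block (0.0613). In a fit of the stages compared, both Bmp4 (adjusted p = 0.082) and Fgf2 (0.0781) lost their calls. Kitl differed by -0.37 (adjusted p = 0.27) and Fgf9 by -0.67 (adjusted p = 0.134). Nrg1 differed by -0.97 and just missed (adjusted p = 0.0501). It passed with RLE factors (adjusted p = 0.0381), in DESeq2 (adjusted p = 0.0143), with at least 1 CPM in 2 libraries (adjusted p = 0.0473), without D16 replicate 2 and D30 replicate 3 together (adjusted p = 0.0303), and without CSF replicate 3 of 6.5 dpp, either D16 library, D30 replicate 3 or the D30 culture of CSF tissue (adjusted p = 0.0146 to 0.0498). Including the excluded 6.5 dpp library left only Csf1 called (1.24, adjusted p = 0.00316), with Gdnf at -1.14 (adjusted p = 0.0699), and with fresh libraries alone, where 6.5 dpp has 1 library, none was called (Gdnf -1.34, adjusted p = 0.087). The Fgf2 call was lost without CSF replicate 1 or 2 of 6.5 dpp or D4 replicate 2 or 3 (adjusted p = 0.057 to 0.121), and the Bmp4 call in 15 of 21 such fits, each D4 and CSF 6.5 dpp library among them (adjusted p = 0.0509 to 0.193), and with D16 replicate 2 and D30 replicate 3 both left out (adjusted p = 0.052). From D4 to D16 no member was called by edgeR (1 had an unadjusted p under 0.05, and DESeq2 called Bmp4 at -0.66 with an adjusted p of 0.0216), beside 18.4% of all genes higher and 5.48% lower, with log2 fold changes from -0.65 for Bmp4 to 0.27 for Gdnf. Bmp4 also passed in edgeR without CSF replicate 3 of 6.5 dpp or 22.5 dpp replicate 2 (adjusted p = 0.0416 to 0.0423), and Csf1 passed without D16 replicate 2 and D30 replicate 3 (-0.89, adjusted p = 0.0418). From D16 to D30 none was called (0 unadjusted, 0 by DESeq2), beside 1.46% and 0.332%, with log2 fold changes from -0.67 for Fgf9 to 0.34 for Bmp4.

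Whether Kitl and Gdnf moved in step was examined by the ratio of their reads within a library, which no scaling touches. There were 9.8 to 20.5 Kitl reads for each Gdnf read in the 6.5 dpp libraries and 8.5 to 13.6 in those of 10.5 dpp. The ratio was 21.8 to 32.4 by 22.5 dpp and 14.4 to 20.1 by 36.5 dpp. D4 cultures had 21.8 to 23.2, D16 cultures 11.6 to 16 and D30 cultures 12.2 to 30.2. On the log2 scale the D4 mean was 4.48 ± 0.05 (SD, n = 3) and the 10.5 dpp mean 3.47 ± 0.35 (SD, n = 3), a difference of 1.01 without overlap. D16 was at 3.77 ± 0.33 (SD, n = 2) and 22.5 dpp at 4.73 ± 0.29 (SD, n = 3), a difference of -0.96, again without overlap. D30 and 36.5 dpp overlapped, with a difference of 0.12. The mean of the 3 differences was 0.06. A two-sided exact permutation test within stages gave p = 0.849 over 3000 arrangements, of which the smallest possible p is 0.000333. Differences of opposite sign cancel in this mean. The test therefore bears only on a shift shared by the 3 stages, not on the separate shifts at D4 and D16.

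**Figure D3:**
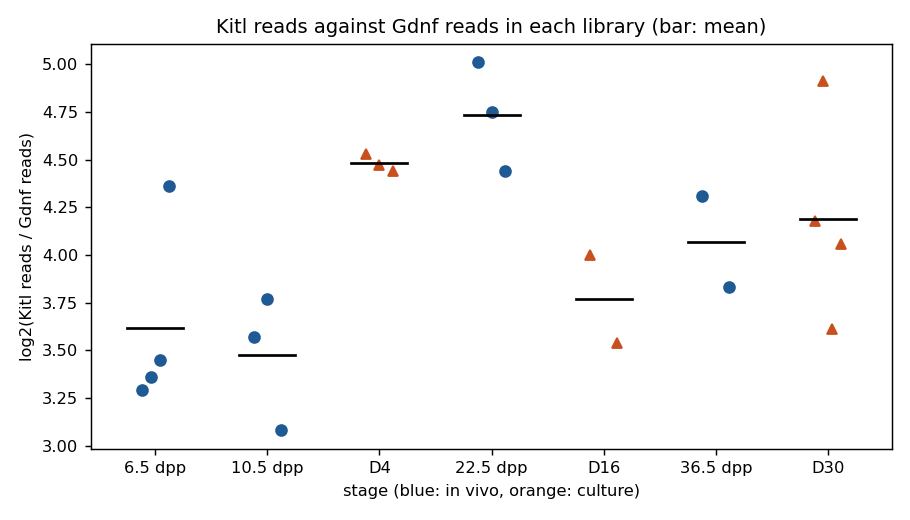
Log2 ratio of Kitl reads to Gdnf reads (y axis) in each library by stage (x axis), with circles for in vivo libraries, triangles for cultures and bars for the mean of the stage. D4 lay 1.01 above 10.5 dpp, D16 lay 0.96 below 22.5 dpp, and D30 spread across the 36.5 dpp values.

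The receptors of the 7 ligands were examined as a list of 15 genes. From 10.5 to 22.5 dpp 10 of 15 fell and 2 rose, beside 27.9% and 33.6% of all genes (median -1.21 against 0.06 over all genes). Among those that fell were the ErbB receptors, which bind neuregulins: Erbb2 (-2.73, adjusted p = 5.38e-06), Erbb3 (-2.87, adjusted p = 3.79e-05) and Erbb4 (-2.68, adjusted p = 4.18e-05). In the same step the GDNF receptor genes Gfra1 and Ret fell by 1.78 and 2.05 on the log2 scale and Kit by 1.39, while Csf1r (0.84, adjusted p = 0.00856) and Fgfr4 (0.96, adjusted p = 0.0129) rose. From 22.5 to 36.5 dpp 10 fell, led by the BMP receptor genes Acvr1 (-1.73), Bmpr1a (-1.31) and Bmpr2 (-1.67), and Gfra1 alone rose (0.98, adjusted p = 0.0245). Of all genes, 27.5% fell and 23.3% rose in that step. Of 6 spermatogonia markers, 4 fell and 1 rose from 10.5 to 22.5 dpp (median -1.42). Their sums overlapped, with 1567 to 1779 CPM at 10.5 dpp and 1433 to 1895 CPM at 22.5 dpp. From 22.5 to 36.5 dpp 5 of these markers fell (median -1.26). The part of spermatogonia number in the receptor changes was not tested.

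In culture Csf1r alone of the 15 passed the test at D4, where it was 6.19-fold lower than at 10.5 dpp (log2 -2.63, SE 0.273, adjusted p = 5.36e-06) beside the higher Csf1: its mean was 4.03 ± 0.468 CPM (SD, n = 3) against 26.5 ± 3.85 CPM (SD, n = 3). CSF1R marks macrophages, and 6 of 7 macrophage markers were lower at D4 as well (median -2.25), with sums of 32.2 to 37.0 CPM against 121.5 to 163 CPM at 10.5 dpp. The part of macrophage number in the lower Csf1r was not tested. By D16 Csf1r had risen 7.26-fold over D4 (log2 2.86, SE 0.291, adjusted p = 6.29e-07), macrophage marker sums were 155.4 to 158.8 CPM, and the difference from 22.5 dpp was -0.62 (adjusted p = 0.122). At D16 6 receptors were higher and 2 lower, with Erbb4 at 2.08 (adjusted p = 0.00403), Gfra1 at 1.40 (adjusted p = 0.00869) and Ret at 1.35 (adjusted p = 0.019), and with Fgfr4 at -1.38 and Fgfr3 at -0.99. Of all genes, 4.92% were higher and 3.18% lower at D4, and 14% and 11.8% at D16. At D30 11 receptors were higher and Fgfr4 alone lower (-0.82, adjusted p = 0.0324), beside 32.4% and 35% of all genes. Bmpr2 (2.59), Bmpr1a (1.92) and Acvr1 (1.77) had the smallest adjusted p, Ret was 4.54-fold higher (adjusted p = 0.000257), and neither Gfra1 (-0.28, adjusted p = 0.465) nor Kit (0.48, adjusted p = 0.117) passed. Of 6 spermatogonia markers, 1 was lower and none higher at D16 (median 0.5), and 4 were higher and 1 lower at D30 (median 1.67). Their part in the receptor levels was not tested.

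**Figure D4:**
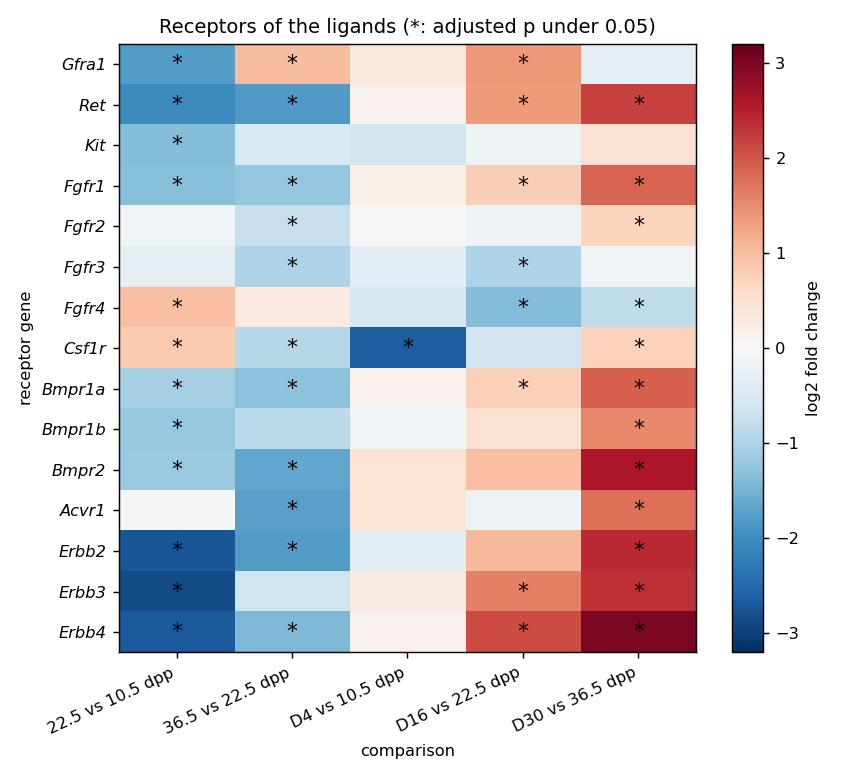
Log2 fold change (colour, red higher and blue lower) of the 15 receptor genes (y axis) in 2 in vivo steps and 3 comparisons of culture with the age-matched testis (x axis), with a star for an adjusted p under 0.05. At D4 the only star is on Csf1r, at -2.63, and at D30 12 of 15 carry one, 11 of them higher. Of all genes, 32.4% were higher and 35% lower at D30.

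Genes that respond to these factors were read from a list of 16 targets and feedback genes of GDNF, FGF and BMP signalling. From 10.5 to 22.5 dpp 13 fell, with Etv4 (-2.26), Dusp6 (-1.48) and Smad7 (-2.44) at the smallest adjusted p, and Id4, an inhibitor of DNA binding found in stem spermatogonia, alone rose (3.33, adjusted p = 1.24e-09). At D4 Id4 (1.26, adjusted p = 0.000478) and Etv5 (0.89, adjusted p = 0.0256), a transcription factor that GDNF and FGF2 induce, were higher than at 10.5 dpp and none was lower. At D16 13 were higher and none lower, with Dusp6 (1.71), Etv4 (2.10) and Bcl6b (1.92) leading. At D30 13 were higher, among them Dusp6 (2.7), Id3 (3.11) and Spry2 (1.95), and Smad6 (-2.40) and Lhx1 (-2.58) were lower. The list median was 1.17 at D16 and 1.92 at D30. These lay below the Sertoli cell marker medians of 1.37 and 2.43 and above the spermatogonia marker medians of 0.5 and 1.67. Of all genes, 27.9% fell and 33.6% rose from 10.5 to 22.5 dpp. The shares called higher and lower in culture were 4.92% and 3.18% at D4, 14% and 11.8% at D16, and 32.4% and 35% at D30. The part of the factors in these changes was not tested. Dusp6 and the Spry genes also answer other growth factors.

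Of 22 other ligands, 10 fell and 2 rose from 10.5 to 22.5 dpp, where Wnt6 (-1.97), Fgf18 (-3.74) and Wnt5a (-2.66) fell and Artn (2.42) and Nrg3 (3.59) rose. In culture Lif, a cytokine of the interleukin 6 family, was higher than in the testis at D4 (1.17, adjusted p = 0.0157), D16 (1.69, adjusted p = 0.00151) and D30 (3.60, adjusted p = 9.39e-07). The chemokine gene Cxcl12 was lower at D4 (-1.49, adjusted p = 0.00271), as was Wnt6 (-0.71). In all, 2 ligands were higher and 2 lower at D4, where 4.92% and 3.18% of all genes were, 7 and 2 at D16 (14% and 11.8% of all genes), and 11 and 5 at D30 (32.4% and 35%). At D30 Igf1 (2.28) and Bmp2 (4.17) were among the higher, and Fgf10 (-2.62), Bmp8b (-3.03) and Artn (-2.04) among the lower.

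Some secreted antagonists of BMP bear on Bmp4. Follistatin (Fst), which binds activins and some BMPs, was at 27.9 ± 1.24 CPM (SD, n = 3) at D4 against 7.93 ± 0.561 (SD, n = 3) at 10.5 dpp, and higher at D4 (1.91, adjusted p = 5.27e-05), D16 (3.2, adjusted p = 8.5e-07) and D30 (4.39, adjusted p = 2.71e-08). Fstl1, a follistatin-like protein, was higher at D16 (1.11, adjusted p = 0.00328) and D30 (2.43, adjusted p = 6.87e-07). Sostdc1 was lower at D4 (-5.07, adjusted p = 0.000102) and D30 (-3.40, adjusted p = 6.16e-05).

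Freezing before culture or sequencing was examined with a term for CSF tissue beside the stage. edgeR called 0 of 19255 genes (0%), with 1261 at an unadjusted p under 0.05, and DESeq2 called 4. No member was called (0 at an unadjusted p under 0.05, 0 by DESeq2), with log2 fold changes from -0.47 (SE 0.392) for Nrg1 to 0.17 (SE 0.219) for Bmp4, over 4 frozen libraries.

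The genes whose log2 levels ran most like each member over the 21 libraries were Septin11, Irf2bp2 and Zfp658 for Gdnf (Pearson's r 0.969, 0.966 and 0.965) and Mfsd14b, Zfp148 and Spred1 for Kitl (0.987, 0.986 and 0.985). For Fgf2 they were Utp6, Dkc1 and 2610008E11Rik (0.986, 0.985 and 0.985), for Csf1 Ccdc9b, H6pd and Lamb2 (0.958, 0.942 and 0.941) and for Bmp4 Smim41, Cnn2 and Islr (0.963, 0.96 and 0.958). For Nrg1 they were Map3k5, Slc4a4 and Net1 (0.899, 0.895 and 0.893) and for Fgf9 Grk1, Mpped2 and Fam81a (0.881, 0.878 and 0.876). Among the members, Gdnf, Kitl and Fgf2 ran most alike (r from 0.92 to 0.95) and Csf1 stood apart, at 0.19 with Gdnf and -0.38 with Nrg1. Libraries of a stage share cell makeup and age, so these values describe the course over stages.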

How the data were processed

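RNA was measured by stranded poly(A) sequencing of whole testis or pooled explants, single reads of 50 bases. The deposited values are raw counts per gene: per the labels and the study's methods, the authors aligned reads to GRCm38 with STAR 2.7.3a and counted them with HTSeq 0.12.4 in intersection-nonempty mode (versions from the submitters' processing notes); the strand setting is not given in the sources used here. NCBI gene IDs were matched to symbols for 27373 of 27466 genes.

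Samples were grouped by GEO's labels. Library totals were 28351546 to 69029328 reads, of which 8 to 98 were of Fgf9. edgeR 4.0.16 (R 4.3.3) fitted 7 stages in 21 libraries, frozen tissue placed with fresh, after filterByExpr (19255 genes kept), TMM normalisation and a quasi-likelihood F test, with Benjamini-Hochberg adjustment over all genes and calls at an adjusted p under 0.05. Freezing was a term beside stage. CPM are counts scaled to a common library total. Most-alike genes used log2 TMM CPM with a prior count of 2. The statistics were tested on simulated data first.

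Alternatives were RLE factors, library size only, no filter, at least 1 CPM in 2 libraries, DESeq2 1.42.0, the study's threshold (a log2 fold change of at least 2 in size and an adjusted p of at most 0.001), the excluded 6.5 dpp library added, fresh libraries only, only the stages compared, a replicate block, and each library left out. The members and lists were chosen with earlier results of these data known, and the rule names all 7 members in each comparison (given by their range where none was called); from each list, its counts and up to 3 genes in each direction with the smallest adjusted p, or the receptors of a member described, are named. The list of BMP antagonists is given by Fst, Fstl1 and Sostdc1 only, and its counts are not reported here. 1 fresh 6.5 dpp library and a copy of another were left out. Start sites came from RefSeq, with windows for 6 of 7 members (Nrg1 had none used here); figures used matplotlib 3.10.9.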

Additional observations from a re-analysis of the deposited data

Results flagged for a closer look

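Within the 4 libraries of 6.5 dpp, CSF replicate 3 stood apart in its log2 ratio of Kitl to Gdnf reads, at 4.36, or 20.5 Kitl reads for each Gdnf read, where the others had 9.8 to 10.9. It was the only sample apart in 16 groups of values examined, and chance sets about 1 in 20 such groups apart. This library also had the lowest read total in the fit (28351546). Its Spearman's rho with the fresh 6.5 dpp library was 0.944, against 0.994 and 0.992 for CSF replicates 1 and 2. Its spermatocyte markers summed to 361.1 CPM, against 174.2 to 208.1 in the others. The paper's figures count fewer CSF libraries at 6.5 dpp than the labels, and which one they leave out is not stated. The culture effect, the log2 fold change of culture over the age-matched testis, differed between the D4 and D16 stages by 3.21 for Gdnf and by 1.19 for Kitl. Between the D16 and D30 stages it differed by 2.07 for Csf1, 1.89 for Fgf2 and 1.15 for Bmp4. The ratio of Kitl to Gdnf reads was higher in all D4 cultures than in all 10.5 dpp testes, by 1.01 on the log2 scale, and lower in both D16 cultures than in all 22.5 dpp testes (-0.96); the difference between these stages was not tested.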

How the results depend on the processing

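Of 2807 values of the 91 member fold changes under alternatives, 2661 kept their direction and their side of the threshold, 98 lost a call, 48 gained one and 0 turned direction past the threshold; 64 fold changes kept their call in all of them. At the study's threshold the members called went from 5 to 1 (22.5 against 10.5 dpp), from 4 to 0 (36.5 against 22.5 dpp and D4 against 6.5 dpp), from 2 to 0 (D4 against 10.5 dpp), from 2 to 1 (D16 against 22.5 dpp), from 5 to 0 (mean of 3 stages), and to 0 for both differences between stages. For D4 against 6.5 dpp, 4 became 1 with the excluded library, 0 with fresh libraries only and 2 with only the stages compared. For D16 against D4, 0 became 1 with DESeq2 and 1 without D16 replicate 2 and D30 replicate 3. For D4 against 10.5 dpp, 2 became 1 with library size only, no filter, fresh libraries only or without those cultures, 0 with the excluded library and 5 with only the stages compared. For D16 against 22.5 dpp, only the stages compared gave 1. For the difference from the D4 to the D16 stage, 2 became 1 with RLE factors, no filter or the excluded library, 4 with library size only or DESeq2, and 5 with only the stages compared. The causes were not tested. With 1 library left out the counts ranged from 5 to 6, 3 to 4, 2 to 5, 0 to 1 (D16 against D4), 0 to 2 (D4 against 10.5 dpp), 2 to 3 (D16 against 22.5 dpp), 5 to 6 (D30 against 36.5 dpp), 4 to 6 (mean), 1 to 3 and 2 to 4 (the differences between stages), the first 3 being 22.5 against 10.5, 36.5 against 22.5 dpp and D4 against 6.5 dpp. With 2 libraries each at 36.5 dpp and D16, a lone remaining library was assumed to vary like the other groups.

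The replicate numbers share no stated origin: of 64 same-numbered pairs across groups, 16 deviated together with a correlation over 0.1 (median 0.01), as did 27 of 123 pairs with other numbers (median -0.01). With the replicate block, the difference from the D4 to the D16 stage had 1 member called in place of 2 (Kitl 1.12, adjusted p = 0.0545), that from D16 to D30 had 4 in place of 3 (Kitl 1.19, adjusted p = 0.0375), and the mean Kitl to Gdnf difference was 0.13 (permutation p = 0.781). Scaling moved the share of higher among all called genes, for D30 against 36.5 dpp, from 48% with TMM to 40% with RLE factors and 65.8% with library size only, for 36.5 against 22.5 dpp from 45.9% to 56% and 27.9%, and for D16 against 22.5 dpp from 54.3% to 43.9% and 68%. Fgf9 had 8 to 98 reads a library, the fewest of the 7.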
